A study of Mus musculus with 8 samples.

Results

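Transcripts of the nuclear-encoded subunits of the mitochondrial respiratory chain and the ATP synthase were measured in mouse lymphoma cells with a short hairpin RNA (shRNA) against Crebbp and with a scramble shRNA. Members were taken by gene symbol, from the name families Nduf (complex I), Sdh (complex II), Uqcr (complex III), Cox4 to Cox8 (complex IV) and Atp5 (complex V). Of 84 such symbols, 76 reached a mean level of 1 FPKM (fragments scaled to the length of the transcript and to the fragments of the library) across the 8 libraries. They are 76 of 11417 loci at or above that level and of 25477 loci in all. Complex I had 36 members, complex II 4, complex III 8, complex IV 11 and complex V 17.

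The cells were B220+ GFP+ cells from the spleens of mice, sorted on a B cell marker and a fluorescent protein, and the labels call them lymphoma cells. The shCrebbp group had 4 libraries and targets Crebbp, a histone acetyltransferase and coactivator of transcription. The scramble group had 4 libraries with an shRNA that serves as the control. Strain, age and the initiating oncogene are not given in the sources used here, and the labels leave unsaid whether libraries are from separate animals, so a p-value covers the spread of libraries only. Library names carry the prefix AO228 (shCrebbp 1 and 2), AO229 (shCrebbp 3 and 4) or AO227 (all scramble). No prefix holds both groups and the labels give the prefixes no meaning, so prefix and group cannot be told apart.

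The respiratory chain sits in the inner mitochondrial membrane and passes electrons taken from NADH and succinate to oxygen. Complexes I, III and IV pump protons as electrons pass, and complex V, the ATP synthase, uses the returning protons to make ATP. Complex II is also the succinate dehydrogenase of the citrate cycle. The subunits come from nuclear and mitochondrial genes. The transcription factors NRF1, GABP (of the ETS family) and YY1 are known regulators of many of the nuclear genes.

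Promoters of Ndufa8, Sdhd, Sdha and Uqcrh are shown here, chosen because they carry letters that match the textbook motifs of these factors. Not all members do. Each is the stretch of 100 bases before the RefSeq start site, 5′ to 3′ in the direction of transcription, from the GRCm38.p6 assembly. Capitals mark matches on either strand to GCGCNTGCG, the motif used for NRF1, or to CCGGAAG, the motif used for ETS factors.
Ndufa8 (chr2:36049339-36049438, minus strand): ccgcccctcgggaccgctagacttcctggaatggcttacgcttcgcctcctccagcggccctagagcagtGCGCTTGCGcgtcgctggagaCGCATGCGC
Sdhd (chr9:50603850-50603949, minus strand): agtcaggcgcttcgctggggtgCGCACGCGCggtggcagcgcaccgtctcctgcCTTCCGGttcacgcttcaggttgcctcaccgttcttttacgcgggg
Sdha (chr13:74350241-74350340, minus strand): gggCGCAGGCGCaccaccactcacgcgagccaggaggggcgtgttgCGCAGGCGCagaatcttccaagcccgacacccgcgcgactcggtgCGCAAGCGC
Uqcrh (chr4:116075071-116075170, minus strand): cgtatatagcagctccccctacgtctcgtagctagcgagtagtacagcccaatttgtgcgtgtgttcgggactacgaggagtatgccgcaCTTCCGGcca

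The RefSeq promoter table, whose windows run from 250 bases before to 50 after a start site, held 65 of the 76 members in 71 windows. The NRF1 letters were in 26 of these windows (36.6%), against 14.2% of the windows of other loci tested and 6.31% of all windows. The ETS letters were in 16 (22.5%, against 19.5% and 8.86%). The letters AAGATGGCG, used for YY1, were in 9 (12.7%, against 3.26% and 1.40%), and in 7 of the 9 a match began after the start site. Any of these motifs was in 41 member windows (57.7%, against 32.6% and 14.9%). Both strands were searched and matches could overlap each other. The median GC content was 58.3% in member windows, 60.7% in windows of the other loci tested and 52.7% in all. By complex the NRF1 letters were in 10 of 34 windows of complex I, 2 of 3 of complex II, 3 of 5 of complex III, 1 of 9 of complex IV and 10 of 20 of complex V. These shares describe letters and carry no test.

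The subunit transcripts were abundant. Their mean level had a median of 47.4 FPKM, against 9.24 FPKM for all loci tested, and 20 members were above 100 FPKM. No member was listed at 0 in any library. The median over genes was 39.8 FPKM in complex I, 26.8 in complex II, 57.8 in complex III, 123 in complex IV and 102 in complex V. Uqcrh, the hinge protein of complex III, had the highest mean of all members at 330 FPKM. Just inside the limit of 1 FPKM was Atp5s at 2.24 FPKM, and just outside it was Cox8b, the muscle form of a complex IV subunit, at 0.571 FPKM.

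**Figure D1:**
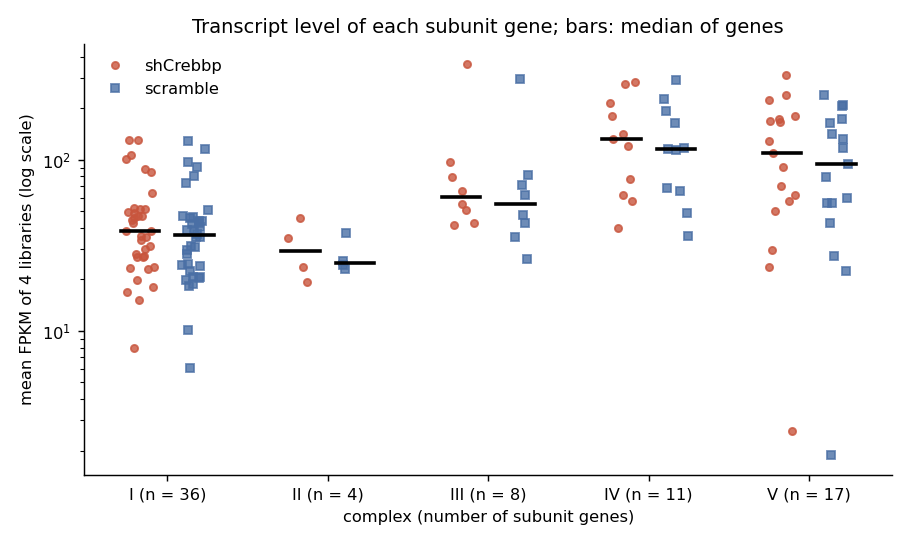
Mean FPKM over 4 libraries (log scale) of each of the 76 subunit genes, by complex, in shCrebbp (circles) and scramble (squares) cells; bars are the median over genes. The points of both groups overlap in every complex, and the medians of complexes IV and V lie above those of the others.

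The 8 symbols under the limit were mainly tissue-restricted forms, and the broadly expressed form of the same subunit was the one found. In complex IV, Cox4i2 averaged 0.149 FPKM beside 284 FPKM for Cox4i1, and Cox6a2 averaged 0.438 FPKM beside 123 FPKM for Cox6a1. Cox6b2 averaged 0.363 FPKM beside 172 FPKM for Cox6b1. Cox7a1 averaged 0.485 FPKM beside 73.0 FPKM for Cox7a2. Of the forms of Cox8, Cox8a averaged 204 FPKM, and Cox8c was listed at 0 in all libraries. Cox7b2 was also listed at 0 in all of them. Ndufa4l2, a hypoxia-induced relative of Ndufa4, averaged 0.301 FPKM, beside 102 FPKM for Ndufa4. Values at this level were not tested between groups.

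Of the cell type markers, all 8 of B cells passed the limit. Their summed level was 2675 to 3374 FPKM in shCrebbp and 2512 to 3014 FPKM in scramble libraries. Of 6 T cell markers 3 passed, with sums of 7.59 to 16.1 and 3.66 to 13.5 FPKM in shCrebbp and scramble libraries. Of 3 NK cell markers 0 passed. The 4 plasma cell markers summed to 368 to 1479 FPKM in shCrebbp and 975 to 2215 FPKM in scramble libraries, and the 6 macrophage markers, led by Cd68, to 227 to 377 and 308 to 443 FPKM. Neutrophil markers stayed at or under 4.11 FPKM in shCrebbp and 4.44 FPKM in scramble libraries, with Elane at 0, and erythroid markers summed to 4.62 to 25.1 and 1.96 to 19.1 FPKM. The part of these cells in the results below was not tested. Crebbp itself measured 18.9, 26.6, 23.4 and 19.3 FPKM in shCrebbp and 33.7, 22.9, 21.3 and 25.8 FPKM in scramble libraries, and the groups overlapped (log2 difference -0.22, SE 0.18, limma adjusted p = 0.915).

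Across the set, most subunit genes had a higher mean in shCrebbp cells by a small amount, and none passed the test. Of 76 members, 67 (88.2%) had a log2 difference above 0, beside 52% of all loci tested. Their median log2 difference was 0.18 (quartiles 0.09 and 0.25), beside 0.01 (quartiles -0.19 and 0.19) for all loci. At an adjusted p under 0.05 in limma, 0 members were called, beside 0 of all loci (0%). Ndufa8 and Sdhd were the 2 members higher at an unadjusted p under 0.05, beside 2.08% of all loci, and 0 were lower, beside 2.93% of all loci. The groups did not overlap in 1 member, Ndufa8, which was higher in shCrebbp, beside 1.58% of all loci that were higher and 1.74% that were lower.

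For most single genes the interval of the difference reached 0. The median standard error of a member's log2 difference was 0.18, and the 95% interval of 74 of the 76 members included 0. The upper bound was under 1, or a doubling on the log2(FPKM + 1) scale, for 74 members. Within groups the standard deviation of log2(FPKM + 1) had a median of 0.26 for members and 0.34 for all loci. In bulk RNA such as this, fewer cells of a type and less RNA per cell cannot be told apart.

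**Figure D2:**
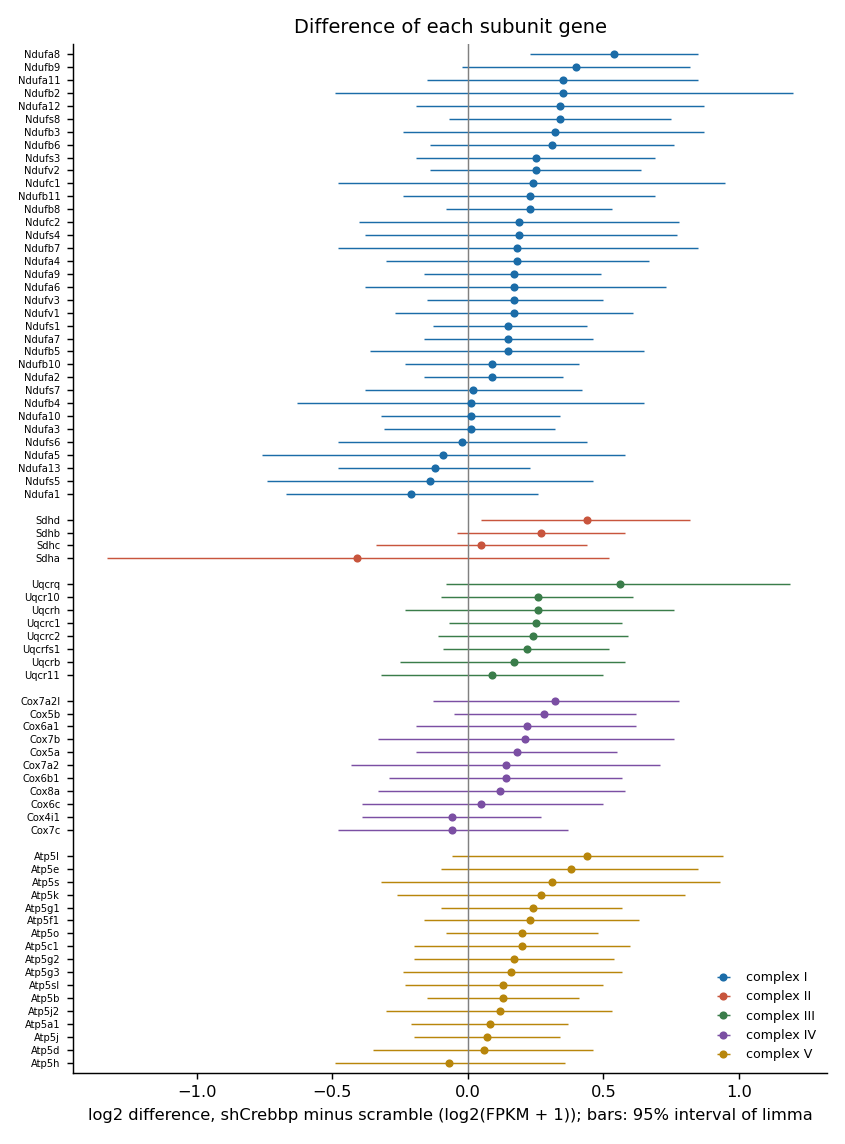
Log2 difference (shCrebbp minus scramble, log2(FPKM + 1) scale) of 75 of the 76 subunit genes with its 95% limma interval, sorted within each complex. Most points lie right of 0, and the intervals of Ndufa8 and Sdhd alone leave out 0.

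The spread between libraries was set by 1 library at either end. As a score of the set, each member's deviation from its 8-library mean on the log2(FPKM + 1) scale was averaged in every library. It was 0.27, -0.03, 0.04 and 0.06 in shCrebbp 1 to 4 and -0.24, -0.05, 0.05 and -0.10 in scramble 1 to 4. The highest library was shCrebbp 1, the lowest scramble 1, and the remaining 6 overlapped between the groups. Of the members, 51.3% (39) had their highest value in shCrebbp 1, beside 20.2% of all loci. In scramble 1, 43.4% (33) had their lowest value, beside 10.7% of all loci. The shCrebbp 1 library also held the lowest value of 22.4% of all loci, and of 5.26% of members.

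Without shCrebbp 1, 60 members were higher and the median log2 difference was 0.11. Without scramble 1, 58 were higher and the median was 0.12. With both left out, an alternative chosen after seeing the data, 50 were higher and the median was 0.07. Members above the scramble mean numbered 64, 53, 55 and 58 in shCrebbp 1 to 4.

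**Figure D3:**
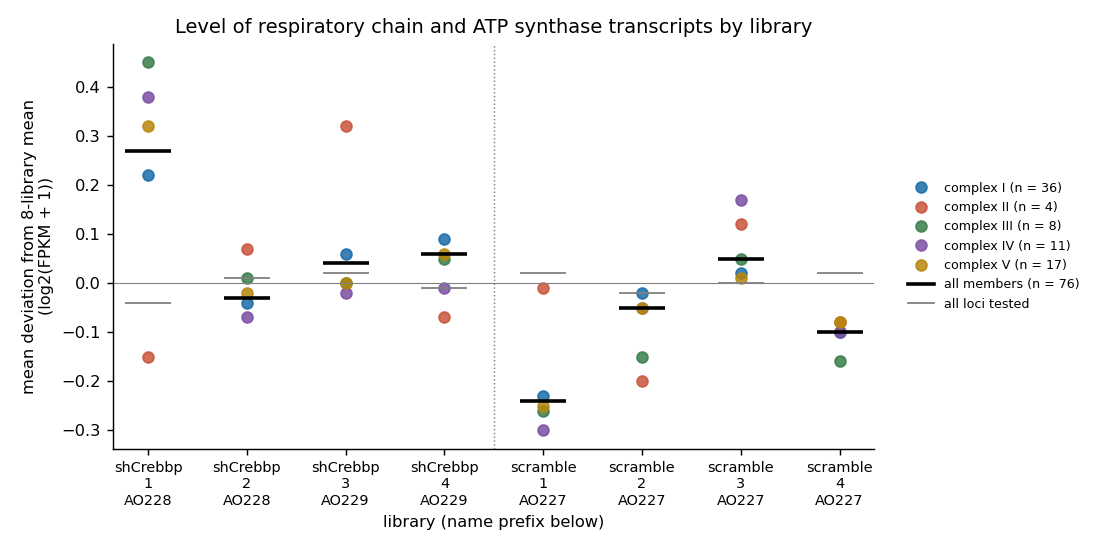
Score of each complex (points), of all 76 members (black bars) and of all loci tested (grey bars) in each library, as the mean deviation of log2(FPKM + 1) from the 8-library mean. All members score 0.27 in shCrebbp 1 and -0.24 in scramble 1, and the other 6 libraries lie between -0.10 and 0.06.

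The name prefixes were set beside each other, with the same 4 scramble libraries in each comparison. In AO228 libraries 61 members were higher than scramble (median 0.23), beside 51.4% of all loci, and in AO229 libraries 61 were higher (median 0.14), beside 52.4% of all loci. In AO228 0 members were called by limma, beside 0% of all loci, and in AO229 0 were called, beside 0.0175%. Between AO229 and AO228, 0 members were called, beside 1.28% of all loci, and 1 had an unadjusted p under 0.05, beside 16.4% of all loci. AO229 was higher than AO228 in 28 members and lower in 48 (median -0.09), beside 50.6% of all loci that were higher.

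Among complex I genes, 31 of 36 had a higher mean in shCrebbp cells, with a median log2 difference of 0.18 and a range of -0.21 to 0.54. Complex I takes electrons from NADH. Its core carries the flavin and iron-sulfur clusters, and many accessory subunits surround that core. The median was 0.11 without shCrebbp 1, 0.09 without scramble 1 and 0.06 without both.

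Ndufa8, an accessory subunit with twin cysteine motifs (locus chr2:36036334-36049292, mm10), had 15.8, 13.5, 15.1 and 16.3 FPKM in shCrebbp libraries and 8.90, 9.68, 11.6 and 10.4 FPKM in scramble libraries. Every shCrebbp library lay above every scramble library, and shCrebbp 1 did not stand out. The means of 15.2 ± 1.25 FPKM in shCrebbp and 10.1 ± 1.14 FPKM in scramble cells (SD, n = 4 each) gave a log2 difference of 0.54 (SE 0.14, 95% interval 0.23 to 0.85). Its limma adjusted p was 0.915. With the groups apart, the exact permutation p was bound to be 0.0286, the smallest that 4 against 4 libraries allow. That p adds nothing to the lack of overlap and is not adjusted for choosing Ndufa8 by its small limma p. AO228 and AO229 differed from scramble by 0.49 and 0.59 on the log2 scale, and with shCrebbp 1 and scramble 1 both left out the difference was 0.47. Its promoter, printed above, holds the NRF1 letters on each strand.

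Ndufb9, an accessory subunit of the membrane arm, had 60.1, 37.1, 45.8 and 44.6 FPKM in shCrebbp libraries and 38.3, 27.5, 32.7 and 42.3 FPKM in scramble libraries. The shCrebbp 1 library was the highest and the groups overlapped (log2 difference 0.40, SE 0.19). Ndufs8, which carries iron-sulfur clusters, had 76.0, 52.8, 59.3 and 68.6 FPKM in shCrebbp libraries and 40.6, 54.6, 63.8 and 44.0 FPKM in scramble libraries. Here too shCrebbp 1 was highest, scramble 1 lowest and the groups overlapped (log2 difference 0.34, SE 0.18).

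Ndufs1, Ndufv1 and Ndufs7 differed less than Ndufa8, Ndufb9 and Ndufs8, which were named for their small limma p. Ndufs1, the largest core subunit, had 24.3, 21.5, 22.5 and 23.1 FPKM in shCrebbp libraries and 20.8, 20.4, 23.1 and 17.7 FPKM in scramble libraries. Scramble 3 lay within the shCrebbp range (log2 difference 0.15). Ndufv1, which binds NADH and the flavin, had 26.7, 29.3, 33.8 and 35.4 FPKM in shCrebbp libraries and 29.6, 19.0, 35.1 and 28.9 FPKM in scramble libraries. Its groups overlapped across most of their range (log2 difference 0.17). Ndufs7, which carries the last iron-sulfur cluster before ubiquinone, averaged 30.2 ± 5.77 and 29.6 ± 4.38 FPKM (log2 difference 0.02, and -0.08 without scramble 1).

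At the ends of the range of levels, Ndufa3 averaged 130 ± 14.7 FPKM in shCrebbp and 129 ± 13.9 FPKM in scramble cells. Ndufa11, the least abundant complex I member, had 10.8, 7.08, 5.89 and 8.24 FPKM in shCrebbp libraries and 6.31, 5.57, 4.42 and 7.89 FPKM in scramble libraries. It was highest in shCrebbp 1, with overlap below (log2 difference 0.35). The accessory genes listed next, 5 in all, had a lower mean in shCrebbp cells, and none of them passed the test. They were Ndufa1 (log2 difference -0.21), Ndufs5 (-0.14), Ndufa13 (-0.12), Ndufa5 (-0.09) and Ndufs6 (-0.02).

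Between the shCrebbp prefixes, the members of smallest p were Ndufb11, Uqcrc1 and Ndufa12. Ndufb11, of the membrane arm, had 70.2 and 70.3 FPKM in AO229 and 130 and 84.4 FPKM in AO228 (log2 difference -0.57, SE 0.22, limma adjusted p = 0.246). Ndufa12, an accessory subunit of the matrix arm, had 37.9 and 41.8 FPKM in AO229 and 82.0 and 43.8 FPKM in AO228 (log2 difference -0.58, limma adjusted p = 0.352). In both genes shCrebbp 1 was the highest of all 8 libraries. Uqcrc1 ran the other way, with 51.2 and 44.9 FPKM in AO229 and 37.6 and 37.8 FPKM in AO228 (log2 difference 0.34, limma adjusted p = 0.350).

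Complex II genes differed in direction. The complex joins the citrate cycle to the chain, with Sdha holding the flavin, Sdhb the iron-sulfur clusters, and Sdhc and Sdhd the membrane anchor. Of its 4 genes, 3 had a higher mean in shCrebbp cells and 1 a lower one (median log2 difference 0.16, range -0.41 to 0.44). Sdhd (locus chr9:50596340-50603849, mm10) had 39.5, 34.0, 34.6 and 30.7 FPKM in shCrebbp libraries and 28.7, 21.8, 31.9 and 20.3 FPKM in scramble libraries. Only scramble 3 reached into the shCrebbp range. The means were 34.7 ± 3.62 and 25.7 ± 5.51 FPKM in shCrebbp and scramble cells (SD, n = 4 each), a log2 difference of 0.44 (95% interval 0.05 to 0.82, limma adjusted p = 0.915, exact permutation p = 0.0571).

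Sdha (locus chr13:74322255-74350240, mm10) had 6.91, 23.9, 29.0 and 17.8 FPKM in shCrebbp libraries and 27.8, 13.8, 25.8 and 29.3 FPKM in scramble libraries. The lowest value was in shCrebbp 1, the library where most other members were highest, and the lowest scramble value was in scramble 2. Its log2 difference of -0.41 had the interval that reached lowest of all members (-1.33 to 0.52, exact permutation p = 0.514). Without shCrebbp 1 it was -0.01, and without scramble 1 as well it was 0.08. Sdhb had 49.7, 45.2, 51.1 and 36.5 FPKM in shCrebbp libraries and 37.6, 39.4, 37.9 and 34.7 FPKM in scramble libraries (log2 difference 0.27, SE 0.14). Of the shCrebbp libraries only shCrebbp 4 lay among the scramble ones. Sdhc averaged 23.7 ± 3.88 FPKM in shCrebbp and 22.9 ± 3.68 FPKM in scramble cells, and the groups overlapped (log2 difference 0.05, and -0.05 without scramble 1).

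In complex III, all 8 members had a higher mean in shCrebbp cells, with log2 differences of 0.09 to 0.56 and a median of 0.24. Complex III passes electrons from ubiquinol to cytochrome c. Its score was 0.45 in shCrebbp 1 and between -0.00 and 0.05 in the other shCrebbp libraries, and the scramble scores were -0.26, -0.15, 0.05 and -0.16. In AO228 8 of 8 were higher than scramble (median 0.31) and in AO229 7 of 8 (median 0.10). Without shCrebbp 1 the median was 0.13, with all 8 higher, and without scramble 1 as well it was 0.09, with 6 of 8 higher.

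Uqcrq, a small subunit that contacts cytochrome b, had 70.4, 32.7, 26.2 and 37.5 FPKM in shCrebbp libraries and 25.4, 20.5, 29.5 and 29.9 FPKM in scramble libraries. The shCrebbp 1 value stood above the other 7 libraries, which overlapped. Its log2 difference of 0.56 (SE 0.28, limma adjusted p = 0.915) was 0.28 without shCrebbp 1. Uqcrh (locus chr4:116066965-116075070, mm10) had 543, 290, 306 and 322 FPKM in shCrebbp libraries and 264, 263, 353 and 302 FPKM in scramble libraries. Again shCrebbp 1 stood apart while the others overlapped (log2 difference 0.26, and 0.06 without shCrebbp 1).

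The core subunit Uqcrc1 had 37.6, 37.8, 51.2 and 44.9 FPKM in shCrebbp libraries and 38.5, 32.2, 35.2 and 36.6 FPKM in scramble libraries (log2 difference 0.25). Its highest values were in AO229 and not in shCrebbp 1. Uqcrfs1, the Rieske iron-sulfur protein, averaged 55.3 ± 6.20 FPKM in shCrebbp and 47.5 ± 5.10 FPKM in scramble cells (log2 difference 0.22). Uqcr10, a small accessory subunit, averaged 97.1 ± 15.9 and 81.0 ± 11.8 FPKM (log2 difference 0.26). Cyc1, the cytochrome c1 subunit whose symbol lies outside the name rule, had 24.1, 22.1, 22.7 and 24.0 FPKM in shCrebbp libraries and 16.7, 15.4, 19.0 and 21.5 FPKM in scramble libraries. Its groups did not overlap, with shCrebbp higher, beside 1.58% of all loci (log2 difference 0.35, limma adjusted p = 0.915).

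**Figure D4:**
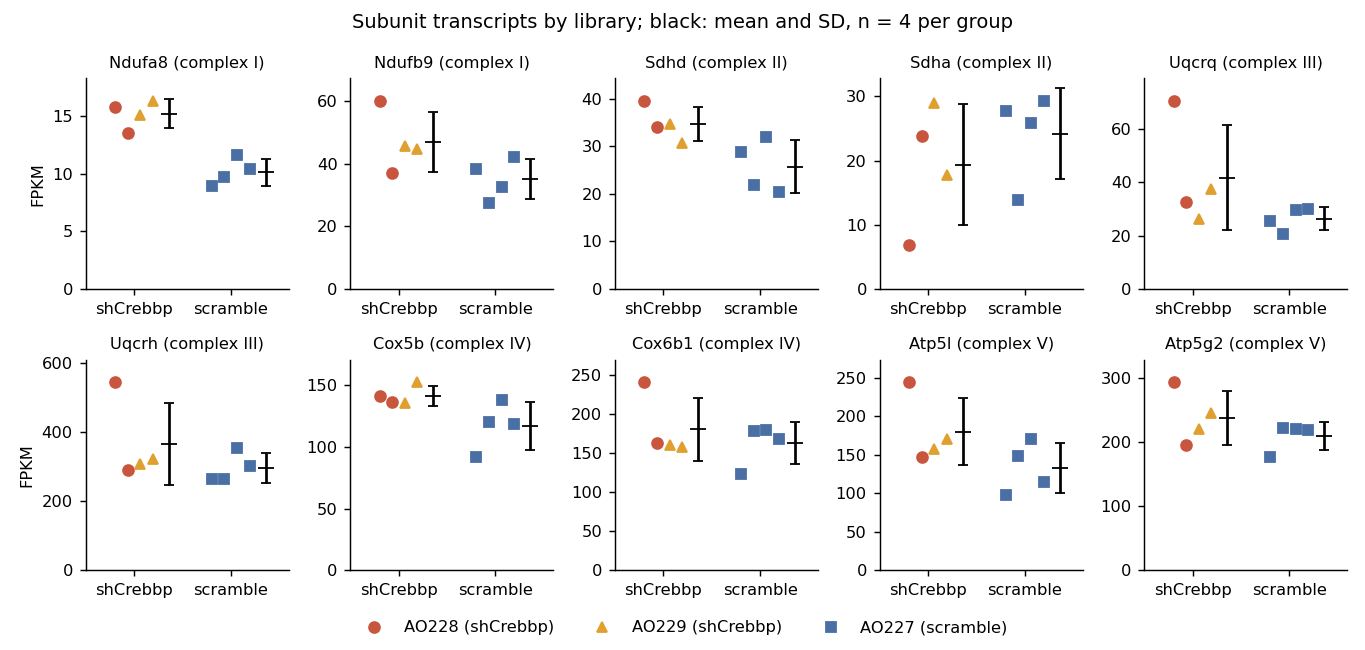
FPKM of 10 subunit genes in each library, with circles for AO228 and triangles for AO229 (both shCrebbp), squares for scramble, and the mean and SD of each group in black (n = 4). The groups are apart only for Ndufa8. The upper circle is shCrebbp 1 for every gene but Sdha. That library is the highest of all 8 for Ndufb9, Sdhd, Uqcrq, Uqcrh, Cox6b1, Atp5l and Atp5g2.

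Complex IV had the highest median level, and it alone had a median that changed sign under an alternative run. Cytochrome c oxidase reduces oxygen to water; its catalytic subunits come from mitochondrial DNA, and the nuclear subunits measured here surround them. Of 11 members 9 had a higher mean in shCrebbp cells (median log2 difference 0.14, range -0.06 to 0.32). Without shCrebbp 1, 5 of 11 were higher (median -0.01), and without scramble 1 as well 4 of 11 (median -0.11). In AO228 9 were higher than scramble (median 0.26) and in AO229 5 (median -0.01).

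Cox5b, a zinc-binding subunit, had 141, 136, 135 and 152 FPKM in shCrebbp libraries and 91.4, 120, 138 and 118 FPKM in scramble libraries. Only scramble 3 reached the shCrebbp range, and scramble 1 was lowest (log2 difference 0.28, SE 0.15). Cox7a2l, known as a factor in the assembly of complexes III and IV into supercomplexes, had 392, 231, 265 and 254 FPKM in shCrebbp libraries and 193, 223, 282 and 204 FPKM in scramble libraries. The value in shCrebbp 1 stood above all others, and the rest overlapped (log2 difference 0.32, SE 0.20, and 0.16 without shCrebbp 1). Cox4i1 had 266, 268, 275 and 297 FPKM in shCrebbp libraries and 252, 330, 323 and 258 FPKM in scramble libraries. The shCrebbp values lay inside the scramble range (log2 difference -0.06, 0.07 after quantile normalization).

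Cox6b1, Cox8a and Cox7a2, broadly expressed forms of small subunits, were each highest in shCrebbp 1. Cox6b1 had 241, 163, 161 and 158 FPKM in shCrebbp libraries and 124, 179, 180 and 169 FPKM in scramble libraries. Apart from shCrebbp 1 the shCrebbp values lay below those of scramble 2 to 4, and the log2 difference of 0.14 was -0.01 without shCrebbp 1. Cox8a had 316, 194, 180 and 172 FPKM in shCrebbp libraries and 178, 205, 208 and 178 FPKM in scramble libraries (log2 difference 0.12). Cox7a2 had 118, 69.4, 64.6 and 57.3 FPKM in shCrebbp libraries and 49.9, 87.2, 62.9 and 74.3 FPKM in scramble libraries (log2 difference 0.14). In both genes shCrebbp 1 was the highest library and the rest overlapped. Without it the log2 differences were -0.07 for Cox8a and -0.08 for Cox7a2. Cox6a1 averaged 132 ± 17.3 FPKM in shCrebbp and 114 ± 23.9 FPKM in scramble cells, and Cox5a 40.2 ± 4.62 and 35.7 ± 6.59 FPKM. The groups overlapped in both, and Cox6a1 was highest in shCrebbp 3.

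Ndufa4, named for complex I but now placed with complex IV, had 123, 93.7, 108 and 105 FPKM in shCrebbp libraries and 62.2, 99.0, 130 and 98.4 FPKM in scramble libraries. Scramble 1 was the lowest and scramble 3 the highest library (log2 difference 0.18, and -0.02 without scramble 1). It is counted with complex I here, by its symbol.

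In complex V, 16 of 17 members had a higher mean in shCrebbp cells, with a median log2 difference of 0.17 and a range of -0.07 to 0.44. The ATP synthase joins a catalytic F1 head to a membrane Fo part that holds a ring of c subunits. In AO228 16 were higher than scramble (median 0.21) and in AO229 14 (median 0.14). Without both shCrebbp 1 and scramble 1, 12 of 17 were higher and the median was 0.08. Atp5h, of the stalk, was the exception (log2 difference -0.07).

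In the head, Atp5b, the catalytic beta subunit, had 255, 222, 216 and 209 FPKM in shCrebbp libraries and 208, 192, 210 and 213 FPKM in scramble libraries. The shCrebbp 4 value lay among the scramble ones (log2 difference 0.13). Atp5a1, the alpha subunit, averaged 174 ± 18.0 FPKM in shCrebbp and 164 ± 10.3 FPKM in scramble cells (log2 difference 0.08). Atp5e, the small epsilon subunit and the most abundant member of complex V, had 440, 255, 279 and 283 FPKM in shCrebbp libraries and 181, 273, 246 and 256 FPKM in scramble libraries. It was highest in shCrebbp 1 and lowest in scramble 1, with the rest overlapping (log2 difference 0.38, SE 0.21, and 0.08 without both).

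The c subunit of the ring is made from the genes Atp5g1, Atp5g2 and Atp5g3, which encode the same mature protein. Atp5g1 had 43.6, 47.8, 51.2 and 59.4 FPKM in shCrebbp libraries and 36.3, 47.3, 47.3 and 40.0 FPKM in scramble libraries (log2 difference 0.24). Atp5g2 had 293, 195, 220 and 245 FPKM in shCrebbp libraries and 177, 222, 221 and 219 FPKM in scramble libraries (log2 difference 0.17). Atp5g3 had 65.9, 65.5, 57.5 and 58.7 FPKM in shCrebbp libraries and 70.2, 42.4, 65.8 and 47.0 FPKM in scramble libraries (log2 difference 0.16). The groups overlapped in each gene, and Atp5g2 was the most abundant of them.

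Atp5l, the g subunit of the membrane part, had 244, 147, 157 and 171 FPKM in shCrebbp libraries and 97.4, 148, 170 and 115 FPKM in scramble libraries. Its log2 difference of 0.44 (SE 0.22, limma adjusted p = 0.915) came with shCrebbp 1 highest, scramble 1 lowest and overlap between the rest, and was 0.15 without both. Atp5s had 3.97, 2.09, 1.63 and 2.71 FPKM in shCrebbp libraries and 1.65, 1.76, 1.31 and 2.80 FPKM in scramble libraries (log2 difference 0.31). It and Atp5sl are named Dmac2l and Dmac2 in the RefSeq table, after the distal membrane arm of complex I, and are kept in complex V by their symbols.

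The length of a gene was taken as the median over all its annotated protein-coding transcripts, short ones included. It need not be the length of the transcript measured, and was 651 nt for Ndufs1 and 2676 nt for Atp5g1. By this measure most members were short, with a median of 659 nt over the 75 that matched an annotated transcript. A split at 1000 nt can therefore misplace members. Members up to 1000 nt (57) had a median log2 difference of 0.17, and longer members (18) one of 0.21. The score of the longer members was 0.22 in shCrebbp 1 and -0.15 in scramble 1, and that of the shorter ones 0.29 and -0.27. Among other loci up to 1000 nt (1756), 56.5% were higher (median 0.04), with scores of 0.04 in shCrebbp 1 and -0.04 in scramble 1. Other loci over 2000 nt had scores of -0.08 in shCrebbp 1 and 0.05 in scramble 1.

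Genes that work with the subunits were nearer to an even split. The 8 lists of assembly factors, carriers, citrate cycle enzymes and regulators held 74 tested genes. Of these, 42 (56.8%) had a higher mean in shCrebbp cells (median log2 difference 0.03), beside 52% of all loci. By limma 0 were called, beside 0% of all loci. At an unadjusted p under 0.05 in limma, 1 was higher, beside 2.08% of all loci, and 0 were lower, beside 2.93%. Assembly factors of complex I were higher in 10 of 13 (median 0.19), and those of complex IV in 11 of 21 (median 0.02). Of complex II assembly factors 2 of 2 were higher (median 0.12), and of complex III factors with Cyc1 4 of 5 (median 0.35). Assembly factors and the inhibitor of the ATP synthase were higher in 1 of 4 (median -0.15), and carriers in 2 of 4 (median -0.12). Citrate cycle enzymes were higher in 8 of 13 (median 0.03). Regulators of mitochondrial biogenesis were higher in 4 of 12 (median -0.10), and subunits encoded in mitochondrial DNA had 0 loci in the table.

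Of single genes in these lists, Cox17, the copper chaperone of complex IV, had 5.12, 39.3, 33.1 and 36.3 FPKM in shCrebbp libraries and 70.2, 43.8, 49.9 and 39.8 FPKM in scramble libraries. Every shCrebbp value lay below every scramble value, with the lowest in shCrebbp 1 and the highest in scramble 1 (log2 difference -1.10, SE 0.56, limma adjusted p = 0.915). The translational activator Taco1 averaged 3.06 ± 0.195 FPKM in shCrebbp and 2.11 ± 0.215 FPKM in scramble cells, and the complex I assembly factor Ndufaf4 3.42 ± 0.719 and 2.44 ± 0.367 FPKM. The groups of both did not overlap. With Cyc1, 3 of the 74 genes were apart and higher in shCrebbp, beside 1.58% of all loci. Only 1, Cox17, was apart and lower, beside 1.74% of all loci. Cox17, Taco1 and Ndufaf4 were chosen after their values were seen, because their groups were apart. Of the factors whose motifs were searched, Nrf1 averaged 21.6 ± 0.875 FPKM in shCrebbp and 21.0 ± 0.937 FPKM in scramble cells (log2 difference 0.03). Gabpa averaged 9.95 ± 0.934 and 9.43 ± 2.05 FPKM (0.09), and Yy1 21.6 ± 1.64 and 25.6 ± 5.52 FPKM (-0.22).

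Other abundant housekeeping families were read in the same way. Cytosolic ribosomal protein genes were higher in 75 of 90 (median 0.17), with scores of 0.19, -0.21, 0.10 and 0.16 in shCrebbp 1 to 4 and -0.25, -0.19, 0.15 and 0.05 in scramble 1 to 4. Mitochondrial ribosomal protein genes were higher in 53 of 77 (median 0.10), with scores of 0.29 in shCrebbp 1 and -0.14 in scramble 1. Proteasome subunit genes were higher in 25 of 38 (median 0.07), with scores of 0.15 and -0.05. The highest score of each of these 3 families was in shCrebbp 1, and the lowest of both ribosomal families was in scramble 1. What these 2 libraries share across families was not tested.

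**Figure D5:**
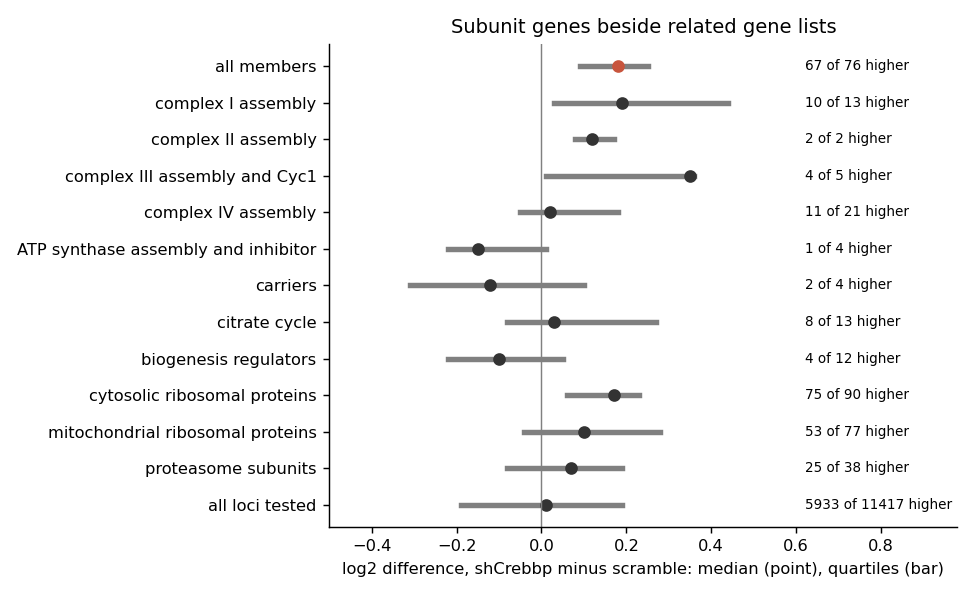
Median (point) and quartiles (bar) of the log2 difference, shCrebbp minus scramble, for the 76 subunit genes, 8 lists of genes of the same pathway, 3 housekeeping families and all loci tested, with the number of genes higher in shCrebbp. The subunit genes centre on 0.18 and cytosolic ribosomal protein genes on 0.17, while all loci centre on 0.01.

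The loci of some members limit how their values can be read. Ndufb8 shares a merged locus with Sec31b, Atp5h has 2 rows of which the higher was used, and Atp5d and Ndufs7 share one locus span. GENCODE lists 6 pseudogenes named after 4 members (Uqcrh, Atp5l, Atp5c1 and Atp5k), by the member's symbol with a -ps ending. Pseudogenes under other names were not counted. How reads shared with pseudogenes were assigned is not given in the sources used here. The levels of these 4 members, and of any member with uncounted copies, are therefore uncertain.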

How the data were processed

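Total RNA of splenic lymphoma cells was sequenced after removal of ribosomal RNA with a stranded kit, per the labels' protocols. The tools were Cufflinks, TopHat2 and CASAVA 1.8 with build mm10, per the submitters' processing notes. The deposited values are FPKM in 1 table, a unit inferred from the values and locus identifiers. It had 13 sample columns, of which 8 matched a sample and 5 matched none and were not used, and 1 emptied line was left out. There are no counts, so depth is unknown and precision was read from the 4 libraries per group alone. Replicates were numbered in the order of the series.

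The 76 members follow a name rule, and members and lists were chosen with earlier results of these data known. Where a symbol had 2 rows, that of the higher mean was taken. Named genes are core subunits, the 3 of smallest p per complex and between prefixes, isoform pairs and the highest and lowest levels. The 11417 loci averaging 1 FPKM or more were fitted as log2(FPKM + 1) with limma 3.58.1 in R 4.3.3 (mean trend, two-sided, Benjamini-Hochberg over all loci, threshold 0.05), which understates changes of low genes. The 3 name prefixes were fitted in the same way. Single genes also had an exact two-sided permutation test over 70 divisions of the libraries. Counts and medians of lists carry no test. The values of 1 member are not reported singly here. Fold sizes are differences of means on that log2 scale. The fit was also run on simulated libraries with independent errors and changes larger than the log2 difference of any member. That run does not bear on differences as small as those of members, or on shifts shared within a library. Transcript lengths, as medians over the protein-coding transcripts of a symbol, came from GENCODE. Promoters came from RefSeq (GRCm38.p6), where 11 members had no entry. Figures used Python 3.11.15.

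Alternatives covered pseudocounts, filters, scaling, quantile normalization, library weights, a prior without trend, merged loci left out, single prefixes and each library left out.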

Additional observations from a re-analysis of the deposited data

Results flagged for a closer look

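In 86 groups of 4 libraries (members named in the text and scores of complexes), 6 had a highest or lowest library far from the other 3. Chance alone gives about 1 in 20 in independent groups. The groups here were not independent, since the same libraries recur and the scores of complexes III and IV include Uqcrh and Cox6b1. Of the 6, 4 were high values in shCrebbp 1. Uqcrh measured 543 FPKM in shCrebbp 1, and on the log2(FPKM + 1) scale, used for all genes below, its gap to the next library was 0.832 of the group's range. Cox6b1 measured 241 FPKM there (0.923 of the range). The score of complex III was 0.45 in shCrebbp 1 (0.878), and that of complex IV was 0.38 (0.865). Atp5g2 measured 177 FPKM in scramble 1, below the other scramble libraries (0.934). Sdha measured 13.8 FPKM in scramble 2 (0.830).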

How the results depend on the processing

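Under 20 alternatives, 0 members were called between shCrebbp and scramble, and the smallest adjusted p of a member there was 0.406, for Ndufa8 with the AO229 libraries only. The number of members higher in shCrebbp was 58 to 69 when single libraries were left out and 50 to 70 under the others, and the median log2 difference 0.11 to 0.24 and 0.07 to 0.23. For the 37 members chosen by the naming rule, 739 alternative values were read. Of these, 706 kept their direction and 33 in 12 of the 37 members changed it, with 0 past the threshold. Loci called between shCrebbp and scramble numbered 0, against 1 with AO228 only, 3 with AO229 only and 0 to 2 without single libraries (2 without scramble 1, 1 without shCrebbp 1). Complex IV had 9 of 11 members higher, against 5 with AO229 only, 4 without both shCrebbp 1 and scramble 1, and 5 to 10 without single libraries (5 without shCrebbp 1). With both left out, which was chosen after seeing the data, the medians of complexes I, II, III, IV and V were 0.06, 0.15, 0.09, -0.11 and 0.08. Without single libraries the medians were 0.09 to 0.23 in complex I, 0.09 to 0.22 in II, 0.13 to 0.28 in III, -0.01 to 0.20 in IV and 0.13 to 0.23 in V. Loci called between AO229 and AO228 numbered 146, against 495 with library weights, 240 with a mean of at least 5 FPKM, 27 without a filter, 2 with a prior without trend, 7 with both left out and 2 to 276 without single libraries, where each library but scramble 4 moved it by over 1.5 times. Leaving out a shCrebbp library leaves 1 in its prefix, assumed to vary like the other groups, so these lower counts also come with fewer samples. The cause of these shifts was not tested. No paired analysis was possible because nothing ties a shCrebbp library to a scramble library. Unknown depth limits the precision of genes of low level, such as Atp5s.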
